A study of Mus musculus with 45 samples.

Results

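Gephyrin, the enzymes and transporter that make and package GABA, and the membrane proteins that organize inhibitory synapses were followed as 8 genes (Gphn, Nlgn2, Slitrk3, Lhfpl4, Iqsec3, Gad1, Gad2 and Slc32a1) among the 18135 gene rows of an RNA-seq series. The list was drawn up with earlier results of these data known, and Gphn was selected on its measured level, which was higher in the cortex of homozygous mutants than in WT. Its cortical values are therefore given as a description without a test, as are all comparisons of that mutant cortex with WT. The samples came from male C57BL/6J mice at 13 weeks of age, as prefrontal cortex (cortex hereafter), hippocampus or striatum. In each region 5 mice were WT, 5 were heterozygous (Shank3-HT) and 5 were homozygous (Shank3-HM) for a Shank3 allele lacking exons 14 to 16, so that 9 groups of 5 made 45 samples. The labels name the homozygous mice as knock-out, the column names write KI for them, and the labels do not tie samples of different regions to a mouse. Shank3 encodes a scaffold of excitatory synapses. All mutants are of 1 line, the labels name no treatment, and litters of mixed genotype were reared together.

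GABA is the main inhibitory transmitter of the forebrain. Gad1 and Gad2 encode the glutamate decarboxylases GAD67 and GAD65 that form it, and Slc32a1 encodes VGAT, the transporter that loads it into synaptic vesicles. On the receiving side gephyrin, the product of Gphn, forms a lattice under the membrane that holds GABA-A and glycine receptors in place, and it also catalyses steps of molybdenum cofactor synthesis. Neuroligin-2 (Nlgn2) is an adhesion protein of inhibitory synapses, Slitrk3 is another that binds the presynaptic phosphatase PTPRD, Lhfpl4 (also called GARLH4) joins GABA-A receptors to neuroligin-2, and Iqsec3 is a gephyrin-binding exchange factor for ARF GTPases. In cortex and hippocampus GABA is made by interneurons, a minority of the neurons, whereas in the striatum the spiny projection neurons that make up most of the neurons are themselves GABAergic.

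The genes Gad1, Gad2 and Slc32a1 sit on mouse chromosome 2 (GRCm38): Gad1 at chr2:70553072-70602014, Gad2 at chr2:22622205-22693874 and Slc32a1 at chr2:158610767-158615748, all on the plus strand. Gphn spans chr12:78226379-78684772 on the plus strand, with 24 exons in its longest annotated transcript, and Nlgn2 (chr11:69823122-69837784), Slitrk3 (chr3:73047265-73057803), Lhfpl4 (chr6:113168090-113195384) and Iqsec3 (chr6:121372933-121473678) lie on the minus strand. Antisense transcripts overlap Gphn (Gm48226), Gad1 (Gad1os) and Slc32a1 (Gm14205). The libraries were made with a kit that keeps the strand, but whether strand was used in quantification is not given in the sources used here. The promoters of the 3 GABA synthesis and loading genes and of Gphn, whose levels the results turn on, are shown as RefSeq gives them for GRCm38.p6, from 250 bases before to 50 bases after the start, 5′ to 3′ on the gene's strand. Capitals mark the GC box, GGGCGG or its reverse complement CCGCCC. The windows are chr12:78226405-78226704, plus strand for Gphn, chr2:70561879-70562178, plus strand for Gad1, chr2:22622077-22622376, plus strand for Gad2 and chr2:158610508-158610807, plus strand for Slc32a1.
Gphn: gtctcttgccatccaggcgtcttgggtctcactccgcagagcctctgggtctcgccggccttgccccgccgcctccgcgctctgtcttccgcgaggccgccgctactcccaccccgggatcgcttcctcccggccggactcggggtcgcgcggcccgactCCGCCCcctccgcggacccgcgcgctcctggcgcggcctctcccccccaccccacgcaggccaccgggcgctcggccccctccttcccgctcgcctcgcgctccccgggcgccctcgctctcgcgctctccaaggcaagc
Gad1: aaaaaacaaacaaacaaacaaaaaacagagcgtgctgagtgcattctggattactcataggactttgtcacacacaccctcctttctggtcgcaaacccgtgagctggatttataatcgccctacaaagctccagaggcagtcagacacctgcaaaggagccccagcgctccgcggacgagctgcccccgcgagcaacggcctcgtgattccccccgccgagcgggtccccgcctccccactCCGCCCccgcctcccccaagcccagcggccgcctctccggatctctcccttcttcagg
Gad2: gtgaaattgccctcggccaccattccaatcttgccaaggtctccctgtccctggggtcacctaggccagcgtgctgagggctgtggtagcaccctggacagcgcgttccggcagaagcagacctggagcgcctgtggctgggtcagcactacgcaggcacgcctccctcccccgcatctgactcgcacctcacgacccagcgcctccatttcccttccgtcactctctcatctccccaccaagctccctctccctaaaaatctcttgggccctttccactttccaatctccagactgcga
Slc32a1: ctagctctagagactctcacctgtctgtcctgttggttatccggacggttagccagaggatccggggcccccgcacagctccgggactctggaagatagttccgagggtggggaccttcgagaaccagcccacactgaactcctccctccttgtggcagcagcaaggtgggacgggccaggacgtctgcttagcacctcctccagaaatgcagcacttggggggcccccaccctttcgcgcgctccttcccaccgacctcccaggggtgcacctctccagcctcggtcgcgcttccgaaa

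All 8 promoters were in the table, and all were richer in G and C than the median of 52.7% over 32851 promoters of the same length, from 58% (Slitrk3) to 77% (Gphn), with 60% for Gad1, 61.3% for Gad2 and 63.3% for Slc32a1. The GC box was present in 5 of the 8 windows (Gphn, Nlgn2, Lhfpl4, Iqsec3 and Gad1), against 35.7% of all promoters, with 3 copies in Nlgn2 and 1 in each of the others. Gad2 and Slc32a1, shown without capitals, held none in these windows. TATAAA was found on the reverse strand in Gad1 alone (13.6% of all promoters on either strand), TGACG on either strand in Nlgn2, Iqsec3 and Gad2 (20.8%), and TAATTA in no member (5.29%). Matches of different motifs did not overlap in any of the 8 windows. These matches are letters in a window and were not tested against expression.

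Shank3 itself followed the gene dose, with group means in WT, Shank3-HT and Shank3-HM of 8005, 6138 and 4054 normalized counts in the cortex, 7944, 5886 and 3801 in the hippocampus, and 12317, 8725 and 5735 in the striatum, and no sample overlapped the next genotype. The normalized values of a sample summed to 26118607 to 29568983, which is not its sequencing depth. The spiny projection neuron markers were highest in the striatum, as the tissue label has it, and marker lists of other cell types set several samples apart. The cortex of Shank3-HM replicate 2 carried a summed level of the 15 spiny projection neuron markers of 57259, against 8169 to 9759.9 in the WT cortex. The striatum of WT replicate 5 had the lowest spiny projection neuron sum of its group (217607 against 276370.1 to 296012), and the striatum of Shank3-HT replicate 5 a choroid plexus sum of 71911 against 507 to 1661 in the others. Choroid plexus sums also varied in the hippocampus, from 1517 to 129076, highest in WT replicate 4, and in the cortex of Shank3-HT replicate 3 the sum was 1209 against 82.4 to 264 in the rest of its group, and in that of Shank3-HM replicate 2 it was 843 against 122 to 273. Several results are therefore also given without 1 of these samples, an alternative that for the gene and marker lists was added after seeing the data. In such bulk samples, fewer cells of a type and less RNA per cell cannot be told apart.

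The WT samples were compared first, to show where the 8 genes are expressed. The striatum had the highest levels of the GABA synthesis and loading genes. Gad1 was at 13979 ± 481 normalized counts in the WT striatum, 8054 ± 422 in the cortex and 6841 ± 383 in the hippocampus (mean ± SD, n = 5). Gad2 was at 13377 ± 170.5, 4179 ± 87.1 and 3446 ± 456, and Slc32a1 at 5269 ± 295, 1653 ± 137 and 1154 ± 53.1 in the same order. Relative to the cortex, the striatal mean was 1.74-fold for Gad1, 3.2-fold for Gad2 and 3.19-fold for Slc32a1, and no striatal sample overlapped another region for these genes. Samples above all those of the other region were seen for 22.9% of all genes against the cortex and 19.1% against the hippocampus. On the log2(value + 1) scale of limma the differences were 0.80 (SE 0.0727), 1.68 (SE 0.16) and 1.67 (SE 0.11).

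Of the 7 members tested between WT striatum and WT cortex, 6 passed an adjusted p under 0.05 in limma, 4 higher and 2 lower in the striatum, where 59.3% of the 16708 genes tested passed, 30% higher and 29.3% lower. The other member higher in the striatum was Lhfpl4 (log2 difference 0.41, SE 0.0556). Nlgn2 was lower in the striatum (-0.34, SE 0.0498). Iqsec3 differed by -1.73 (SE 0.0954), with 1768, 2079, 2087, 2059 and 2879 normalized counts in the 5 striatal samples against 6336, 6956, 7015, 7976 and 7330.0 in the cortex. The striatal samples of Iqsec3 all lay far under the cortical ones, as all striatal samples lay under all cortical ones for 23.4% of genes. Without striatum WT replicate 5 the difference was -1.83 for Iqsec3 and 1.71 for Slc32a1. Slitrk3 did not pass between these regions (0.13, 95% interval -0.01 to 0.28, adjusted p = 0.107 in limma).

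Between WT striatum and WT hippocampus 7 of 8 members passed, 5 higher and 2 lower in the striatum (56.1% of all genes did, 27.8% higher and 28.3% lower). Higher in the striatum were Gad1 (1.03, SE 0.0727), Gad2 (1.97, SE 0.16), Slc32a1 (2.19, SE 0.11), Lhfpl4 (0.44, SE 0.0556) and Gphn (0.23, SE 0.0968). The Gphn samples of these regions overlapped, and its adjusted p of 0.0419 in limma went to 0.213 without striatum WT replicate 2, 0.0763 without striatum WT replicate 1, 0.108 without hippocampus WT replicate 4 and 0.104 without hippocampus WT replicate 5. Lower in the striatum were Iqsec3 (-1.58, SE 0.0954) and Slitrk3 (-0.46, SE 0.0714). Nlgn2 did not pass (-0.04, 95% interval -0.14 to 0.06).

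Cortex and hippocampus were closer to each other. Of 7 members tested there, 4 passed (46.6% of all genes did, 23.3% in each direction). Nlgn2 (0.30), Slc32a1 (0.51) and Gad1 (0.24) were higher in the cortex and Slitrk3 (-0.59) was higher in the hippocampus. Under quantile normalization Gad1 no longer passed (0.11, adjusted p = 0.291 in limma). Gad2 (0.29, 95% interval -0.04 to 0.61), Iqsec3 (0.15, -0.04 to 0.34) and Lhfpl4 (0.03, -0.08 to 0.14) did not pass. These intervals come from the fit of 9 groups, whose spread includes the cortex of Shank3-HM replicate 2, and in the 10 WT samples alone Gad2 passed (0.29, adjusted p = 0.00784 in limma). Gphn was lowest in the WT cortex, at 1443 ± 73.4, against 2012 ± 167 in the hippocampus and 2374 ± 376 in the striatum, which is given without a test because the WT cortex took part in its choice. Its order of levels was therefore striatum, hippocampus and cortex, with the first pair overlapping.

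Levels of different genes were compared per kilobase of the longest annotated transcript. Which transcript is expressed was not measured, so the order of close values is approximate. The methods also name a normalization to gene size, whose part in the deposited values is not known here. In the WT cortex Gad1 stood highest at 2401 normalized counts per kb, followed by Nlgn2 (1345), Iqsec3 (883), Gad2 (728), Lhfpl4 (725), Slc32a1 (591), Gphn (404) and Slitrk3 (357). In the WT striatum Gad1 (4166 per kb), Gad2 (2329) and Slc32a1 (1884) stood above all organizers, and Iqsec3 (269.6) below all of them. In the WT hippocampus the order began with Gad1 (2039) and Nlgn2 (1093) and ended with Slc32a1 (413).

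**Figure D1:**
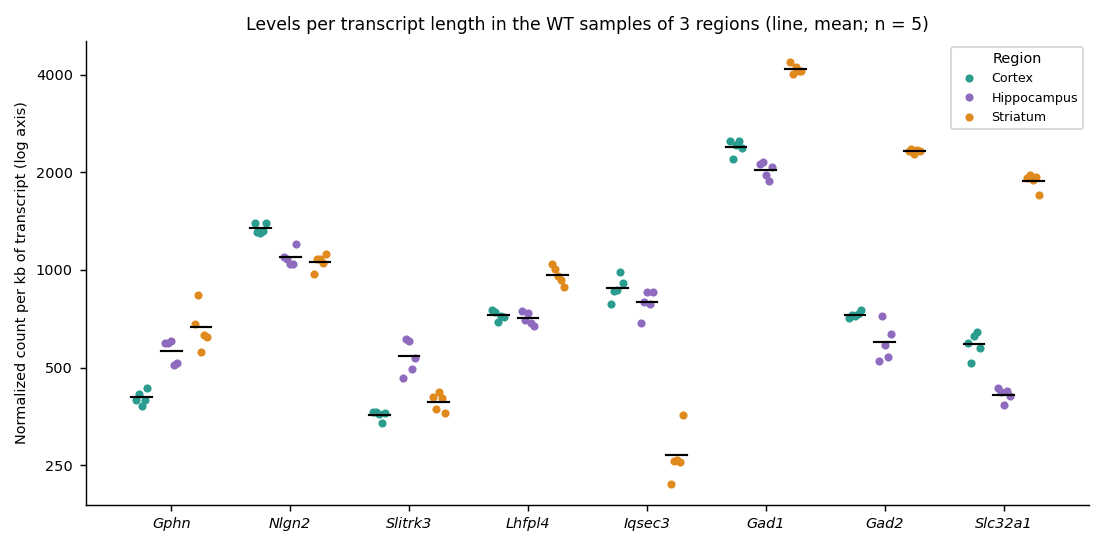
Normalized counts per kilobase of the longest annotated transcript (log axis) of the 8 genes in the 5 WT samples of each region, with a line at the mean. The 3 GABA synthesis and loading genes are highest in the striatum, where Iqsec3 falls to the lowest level of the 8 genes.

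The GABA genes also differed between regions in their proportions. The Gad2 to Gad1 ratio of normalized counts within a sample was 0.958 ± 0.0398 in the WT striatum, 0.52 ± 0.0332 in the cortex and 0.503 ± 0.0541 in the hippocampus. The striatum differed from each other region (exact permutation test, two-sided p = 0.00794, the smallest that 5 against 5 can give, 0.0381 adjusted over 24 ratio tests), and cortex and hippocampus overlapped (exact p = 0.579). The Slc32a1 to Gad1 ratio was 0.377, 0.205 and 0.169 in striatum, cortex and hippocampus, and all 3 pairs of regions were separate (exact permutation p = 0.00794 each, adjusted 0.0381). The Slc32a1 to Gad2 ratio was 0.394 in the striatum and 0.396 in the cortex (exact permutation p = 0.976), and 0.34 in the hippocampus (exact permutation p = 0.0714 against striatum and 0.0794 against cortex, 0.272 adjusted for both).

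The question of the series, whether the dose of the Shank3 deletion changes expression in each region, was then asked of the 8 genes. In limma, fitted per region over all genes, no tested member passed an adjusted p under 0.05 between genotypes. The share of all genes that passed was 0% between Shank3-HT and WT and 0.00606% between Shank3-HM and Shank3-HT in the cortex, 0.00603% in each hippocampal comparison, and 0.00607% (Shank3-HT against WT), 0.182% (Shank3-HM against WT) and 0.14% (Shank3-HM against Shank3-HT) in the striatum, there with 0.0364% lower in Shank3-HM. Between Shank3-HM and WT in the cortex 0.0121% of genes passed, from which nothing is read here. At an unadjusted p under 0.05, 4 of 8 members stood out between Shank3-HM and WT in the striatum (Iqsec3, Gad1, Gad2 and Slc32a1, against 7.43% of all genes), 2 between Shank3-HM and Shank3-HT (Gad1 and Gad2, against 6.49%) and 1 between Shank3-HT and WT (Iqsec3, against 7.43%). In the 3 hippocampal comparisons no member did (2.09% to 5.26% of all genes), and in the cortex Nlgn2 alone did between Shank3-HM and Shank3-HT (4.87%) and no member between Shank3-HT and WT (2.68%). The comparisons with WT share the WT samples.

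**Figure D2:**
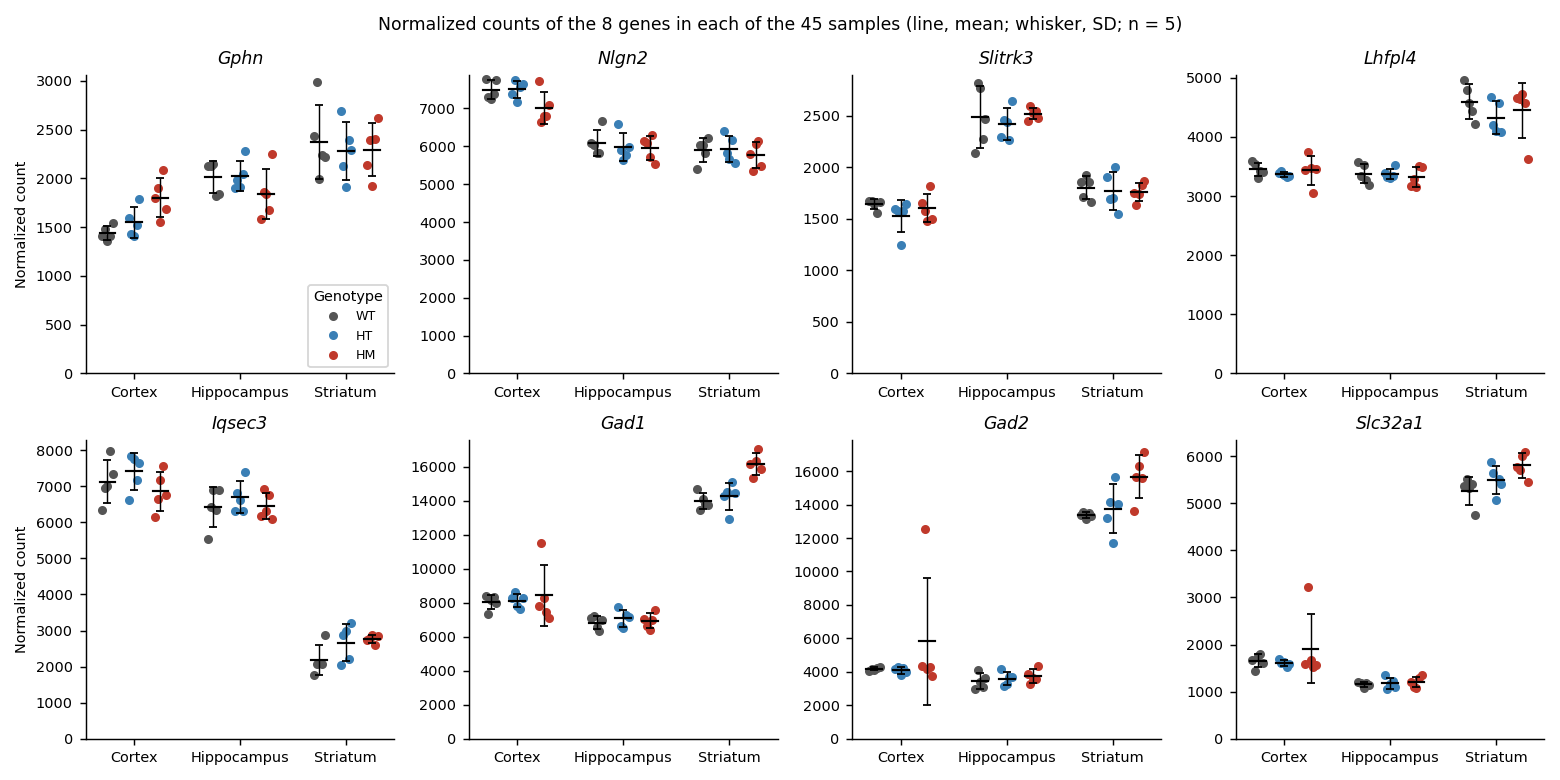
Normalized counts of the 8 genes in the 45 samples, in 1 panel per gene with 5 samples per genotype and region, the group mean as a line and the SD as a whisker. In the striatum the 5 Shank3-HM samples of Gad1 and Gad2 lie above the 5 WT samples, and in the cortex 1 Shank3-HM sample stands far above the rest for Gad1 (11505), Gad2 (12546) and Slc32a1 (3215).

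In the striatum the 3 GABA synthesis and loading genes were higher in Shank3-HM mice by 10.2% to 17.1%, without passing the test over all genes. Gad1 was at 14719, 13457, 14142, 13831 and 13744 normalized counts in the 5 WT samples, 14321, 14549, 12924, 15094 and 14475 in Shank3-HT and 16189, 15361, 16359, 17062 and 15896 in Shank3-HM. Every Shank3-HM sample lay above every WT and every Shank3-HT sample, while Shank3-HT overlapped WT. Groups that do not overlap in this direction were seen for 1.1% of the 16482 genes between Shank3-HM and WT and for 0.746% between Shank3-HM and Shank3-HT. The mean was 15.7% above WT, a log2 difference of 0.21 (SE 0.0473, 95% interval 0.11 to 0.31) with an adjusted p of 0.11 in limma, and an exact permutation p of 0.00794 for this single gene. That permutation p is the smallest that 5 against 5 can give and is not adjusted for the 62 such tests of members. Against Shank3-HT the difference was 0.18 (SE 0.0473, adjusted p = 0.295 in limma), and between Shank3-HT and WT it was 0.03 (-0.07 to 0.13).

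Gad2 was at 13366, 13556, 13120.2, 13506 and 13337 in WT, 13190.1, 14149, 11724, 15671 and 14049 in Shank3-HT and 13621, 15647, 16317, 15615 and 17117 in Shank3-HM. The Shank3-HM samples again all lay above WT, the lowest by a narrow margin, and the Shank3-HT samples ran from below the WT range to within the Shank3-HM range. The mean was 17.1% above WT, with a log2 difference of 0.22 (SE 0.0684, 95% interval 0.08 to 0.37, adjusted p = 0.352 in limma, exact permutation p = 0.00794). Slc32a1 was at 5359.6, 5509, 5317, 5404 and 4757 in WT, 5867, 5639, 5061, 5506 and 5404 in Shank3-HT and 5772, 5698, 6014, 6096 and 5443 in Shank3-HM. Of the 5 Shank3-HM samples 4 lay above all WT samples, and the WT value of 4757 came from replicate 5, the sample with the low spiny projection neuron sum. The log2 difference was 0.14 (SE 0.0512, adjusted p = 0.508 in limma, exact permutation p = 0.0159), and 0.10 without that sample, where Gad1 gave 0.20 and Gad2 0.22.

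The proportions of the 3 genes in the striatum were compared between Shank3-HM and WT. The Gad2 to Gad1 ratio was 0.97 ± 0.0923 in Shank3-HM against 0.958 ± 0.0398 in WT (exact permutation p = 0.825), and the Slc32a1 to Gad1 ratio 0.359 ± 0.0112 against 0.377 ± 0.0243 (exact permutation p = 0.175). The Slc32a1 to Gad2 ratio was 0.373 against 0.394 (exact permutation p = 0.325). Markers of the cells that make GABA were read beside them. The 15 spiny projection neuron markers had a median log2 difference of -0.03 between Shank3-HM and WT, with 6 of 15 above 0 and summed levels of 259497 to 287018 against 217607 to 296012. The 15 interneuron markers had a median of 0.13, with 12 of 15 above 0 and summed levels of 13855 to 15925 against 13167 to 14600.1, which overlapped. Tac1 is on this list and had a mean of 5409 in the WT striatum, where the mean interneuron sum was 13702. Tac1 was also high with the spiny projection neuron markers in the cortex of Shank3-HM replicate 2. The interneuron sum therefore cannot be read as interneurons alone. Without WT replicate 5 the spiny projection neuron and interneuron medians were -0.10 (2 of 15 above 0) and 0.15 (11 of 14 tested). None of these markers passed the test, all were detected, and their part in the Gad1 and Gad2 values was not tested.

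In the hippocampus the genotypes overlapped for all 3 genes. Gad1 ranged over 6315 to 7230.0 in WT, 6546 to 7773 in Shank3-HT and 6429 to 7602 in Shank3-HM, and Gad2 over 3002 to 4130.3, 3132 to 4174 and 3249.8 to 4356. The Shank3-HM minus WT differences there were 0.02 (-0.10 to 0.14) for Gad1, 0.12 (-0.08 to 0.32) for Gad2 and 0.06 (-0.10 to 0.22) for Slc32a1, so that a difference of the striatal size lies inside the hippocampal interval for Gad2 and Slc32a1 and above it for Gad1. The test of the difference itself, striatum minus hippocampus in 1 limma fit of the 9 groups, gave 0.19 (SE 0.10, adjusted p = 0.953) for Gad1, 0.10 (SE 0.23, adjusted p = 0.998) for Gad2 and 0.08 (SE 0.15, adjusted p = 0.997) for Slc32a1. Without striatum WT replicate 5 these were 0.18, 0.10 and 0.0459. No member passed it, against 0.0718% of all genes, so the striatal pattern was not shown to be particular to the striatum. The spread of this fit includes the cortex of Shank3-HM replicate 2, which stands far from its group for these 3 genes. This contrast was not fitted without that sample, so the test cannot decide whether Gad1, Gad2 and Slc32a1 differ between striatum and hippocampus. Between Shank3-HT and WT no member passed in any pair of regions, and 0% of all genes did. The cortex enters the Shank3-HM comparisons of regions as a description only (0.0539% of genes passed between cortex and striatum, 0.012% higher in the cortex, and 0% between cortex and hippocampus).

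Iqsec3 had the largest difference of a member in the striatum, in both mutants. Its WT samples were at 1768, 2079, 2087, 2059 and 2879, its Shank3-HT samples at 2033, 2875, 2994, 2221 and 3217 and its Shank3-HM samples at 2724, 2798, 2864, 2608 and 2837 normalized counts. In WT 4 samples lay under every Shank3-HM sample and replicate 5 lay above them all, whereas in Shank3-HT 3 samples lay above every Shank3-HM sample and the other 2 under them all. The Shank3-HM minus WT difference was 0.37 (SE 0.12, 95% interval 0.11 to 0.63, adjusted p = 0.458 in limma, exact permutation p = 0.0476), and 0.47 without WT replicate 5 (adjusted p = 0.145 in limma). The Shank3-HT minus WT difference was 0.29 (SE 0.12, adjusted p = 0.656 in limma), and it was 0.22 to 0.40 when any 1 mouse was left out, 0.22 without Shank3-HT replicate 5 and 0.40 without WT replicate 5. In the hippocampus the Shank3-HM minus WT difference was 0.01 (-0.12 to 0.14), and the striatum minus hippocampus test gave 0.36 (SE 0.13, adjusted p = 0.749 in limma), and 0.46 without striatum WT replicate 5 (adjusted p = 0.259 in limma). Iqsec3 is far higher in the WT cortex than in the WT striatum, so the summed level of the 10 excitatory neuron markers was read beside it. This sum was 31591 to 39120.4 in WT, 24116 to 35567 in Shank3-HT and 29223 to 38342 in Shank3-HM, highest in WT replicate 5 (39120.4) and lowest in Shank3-HT replicate 5 (24116), the sample with the highest Iqsec3 of all 15. Gene by gene, the 10 excitatory markers had a median log2 difference from WT of -0.93 in Shank3-HT, with 1 of 10 above 0, and of -0.06 in Shank3-HM, with 3 of 10. Without WT replicate 5 these medians were -0.48 (1 of 10) and 0.38 (9 of 10), and without Shank3-HT replicate 5 the first was -0.69 (1 of 10). The direction for Shank3-HM therefore turned with 1 WT sample. Astrocyte markers were above 0 for 10 of 10 in Shank3-HT (median 0.10) and 5 of 10 in Shank3-HM (median 0.000336). The 10 oligodendrocyte markers had median log2 differences of 0.35 (Shank3-HT) and 0.19 (Shank3-HM) from WT. The summed spiny projection neuron markers were at 231058 to 295636 in Shank3-HT, with 233867 in replicate 5, and lowest of WT in replicate 5 (217607). Leaving out WT replicate 5, their median log2 difference from WT was -0.14 in Shank3-HT (0 of 15 above 0) and -0.10 in Shank3-HM (2 of 15). Leaving out Shank3-HT replicate 5 instead gave -0.02 in Shank3-HT (6 of 15). The part of all these markers in the Iqsec3 values was not tested.

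**Figure D3:**
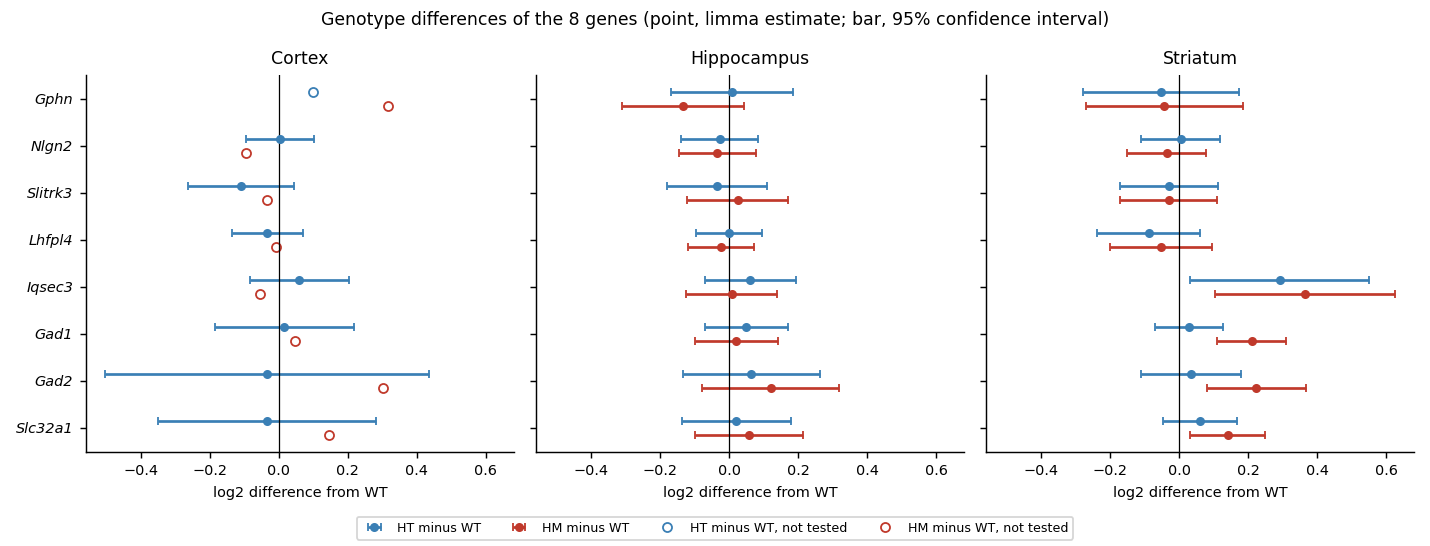
Differences from WT on the log2 scale for the 8 genes in 3 regions, for Shank3-HT and Shank3-HM, with 95% confidence intervals that are not adjusted for the number of genes. Open points mark values given without a test. These are all 8 genes of the Shank3-HM cortex, the comparison on which Gphn was chosen, and Gphn of the Shank3-HT cortex. Gad1, Gad2, Slc32a1 and Iqsec3 lie above 0 in the Shank3-HM striatum, and Gphn has the highest value in the cortex (0.32).

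Gphn, the gene that defined the choice, was at 1413, 1483, 1358, 1415 and 1548 normalized counts in the WT cortex, 1597, 1426, 1408, 1525 and 1793 in Shank3-HT and 1801, 1902, 1549, 2082 and 1683 in Shank3-HM. Each Shank3-HM sample was above each WT sample, replicate 3 narrowly (1549.2 against 1547.8), and Shank3-HT replicate 5 lay close to the middle of the Shank3-HM group. Groups that do not overlap in this direction occur for 0.388% of genes, and nothing is read from it here, since this comparison chose the gene. The means were 1443 ± 73.4, 1549.8 ± 156 and 1804 ± 204 (n = 5), so Shank3-HM was 25% and Shank3-HT 7.37% above WT. Without Shank3-HM replicate 2, the log2 difference of the remaining 4 samples from WT was 0.29.

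In the regions the choice did not use, the Gphn samples of the genotypes overlapped. The hippocampal samples were at 2126, 2126, 2149, 1823 and 1838 in WT, 1902, 1983, 1916, 2042 and 2282 in Shank3-HT and 1585, 1857, 1841, 1680.0 and 2254 in Shank3-HM. Of the 5 Shank3-HM samples 4 lay under the lowest Shank3-HT sample, and replicate 5 lay above every WT sample. The Shank3-HM minus WT difference was -0.13 (95% interval -0.31 to 0.04, adjusted p = 0.92 in limma), and -0.17 without WT replicate 4. In the striatum the samples were at 2434, 2984, 1992, 2243 and 2215 in WT, 2693, 2123, 1908, 2396 and 2288 in Shank3-HT and 2135, 2393, 1918, 2408 and 2623 in Shank3-HM, with differences from WT of -0.05 (-0.28 to 0.17) and -0.04 (-0.27 to 0.18). Gephyrin also acts in molybdenum cofactor synthesis, and the other genes of that pathway and its enzymes (7 in the data) had median differences between Shank3-HM and WT of 0.02 in the hippocampus and 0.02 in the striatum, with 4 of 7 above 0 in both. Without hippocampus WT replicate 4 and striatum WT replicate 5 the medians were 0.07 and 0.04, again with 4 of 7 above 0.

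The 3 membrane organizers Nlgn2, Slitrk3 and Lhfpl4 overlapped between genotypes in each region. Nlgn2 ranged over 7261 to 7773, 7160.0 to 7750.3 and 6648 to 7714 in the WT, Shank3-HT and Shank3-HM cortex, 5816 to 6674, 5629 to 6593 and 5522 to 6292 in the hippocampus, and 5405 to 6227, 5556 to 6399 and 5346 to 6133 in the striatum. Its widest tested difference was between Shank3-HM and Shank3-HT in the cortex, -0.10 (SE 0.0467, adjusted p = 0.959 in limma), where 4 of 5 Shank3-HM samples lay under all Shank3-HT samples. Slitrk3 ranged over 1552 to 1674, 1247 to 1643 and 1479 to 1820.0 in the WT, Shank3-HT and Shank3-HM cortex, 2132 to 2819, 2266 to 2642 and 2450.5 to 2595 in the hippocampus, and 1658 to 1924, 1549 to 2001 and 1635 to 1862 in the striatum. The low end of the Shank3-HT cortex, 1247, was replicate 3 alone, and the Shank3-HT minus WT difference was -0.11 (-0.26 to 0.04), and -0.04 without that sample. Lhfpl4 ranged over 3298 to 3587, 3323 to 3432 and 3059 to 3747 in the WT, Shank3-HT and Shank3-HM cortex, 3193 to 3569.5, 3303 to 3529.7 and 3158 to 3514 in the hippocampus, and 4227 to 4961, 4080.0 to 4673 and 3629 to 4731 in the striatum. In the Shank3-HM striatum 4 samples lay within 4579 to 4731 and replicate 5 at 3629. For the striatum the Shank3-HM minus WT intervals were -0.15 to 0.08 (Nlgn2), -0.17 to 0.11 (Slitrk3) and -0.20 to 0.10 (Lhfpl4), and for the hippocampus -0.14 to 0.08, -0.12 to 0.17 and -0.12 to 0.07.

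**Figure D4:**
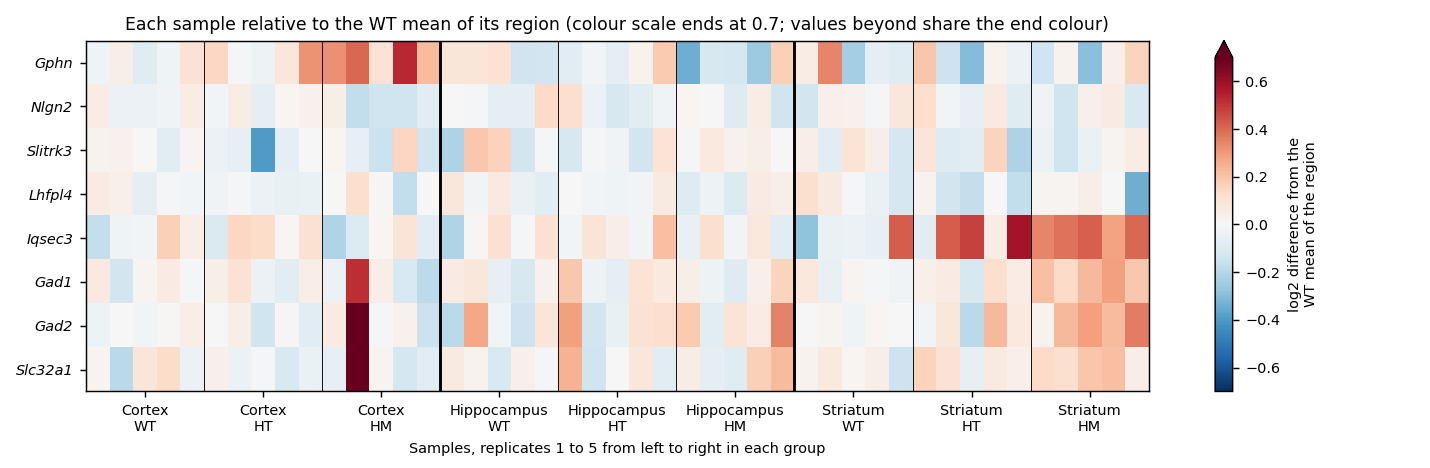
Each of the 45 samples as a log2 difference from the WT mean of its region for the 8 genes, with replicates 1 to 5 from left to right in each group. The cortex of Shank3-HM replicate 2 shows the highest values for Gad1, Gad2 and Slc32a1, all 5 Shank3-HM striatum samples lie above 0 for the same genes and for Iqsec3, none of which passed the test, and the 5 Shank3-HM cortex samples lie above 0 for Gphn, which was not tested there.

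The cortex of Shank3-HM replicate 2 decided the cortical means of the GABA genes. Gad2 was at 12546 there and at 3763 to 4343 in the other 4 Shank3-HM samples. Gad1 was at 11505 against 7098 to 8297, and Slc32a1 at 3215 against 1516 to 1672. On the way from the mean of the WT cortex to that of the WT striatum, this sample stood at 91% for Gad2, 58.3% for Gad1, 43.2% for Slc32a1, 53.1% for Nlgn2, 49.3% for Gphn, 25.7% for Lhfpl4 and 9.83% for Iqsec3, at -38.8% (away from the striatum) for Slitrk3, and at 18.3% for the summed spiny projection neuron markers. For Gphn and Nlgn2 the other Shank3-HM samples lay on the same side of the WT mean on average: Gphn of this sample, 1902, was inside the range of the other 4 (1549 to 2082), and Nlgn2, 6648, was a little under theirs (6798 to 7714). Of the 15 single markers, 15 were above the other 4 Shank3-HM samples and 14 above the WT cortex mean, at a median of 17.6% of the way, from -0.979% (Ebf1) to 72.2% (Isl1). In the same sample the summed interneuron markers were at 14470.0 against 12586 to 14023 in the other Shank3-HM samples and 12680.3 to 13371 in WT, the choroid plexus markers at 843 against 122 to 273, and the summed excitatory neuron markers were at 51719 against 82463 in the WT cortex. The interneuron list includes Tac1, which was at 2909 in this sample. Tac1 was at most 291 in the other 14 cortical samples and at a mean of 5409 in the WT striatum. The interneuron sum therefore holds a gene with a high striatal level, and it was not computed without Tac1. The part of these markers in the levels of the GABA genes was not tested. The Gad2 to Gad1 ratio of this sample was 1.09, above every other cortical sample (at most 0.572). Of 12330 genes with a cortical mean of at least 100, 96 were more than 2 times the highest of the other 14 cortical samples.

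Without this sample the Shank3-HM cortex lay near WT for the GABA genes, with log2 differences from WT of -0.07 for Gad1, -0.02 for Gad2 and -0.06 for Slc32a1 over the 4 other samples, where all 5 gave 0.05, 0.30 and 0.15. For the other members the 4 samples gave differences of -0.08 for Nlgn2, -0.03 for Slitrk3, -0.04 for Lhfpl4 and -0.04 for Iqsec3. The Shank3-HT cortex overlapped WT for all 8 genes, and the Shank3-HT minus WT differences of the 7 tested members ran from -0.11 to 0.06, with a wide interval for Gad2 (-0.50 to 0.44) in a fit whose spread includes that sample.

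**Figure D5:**
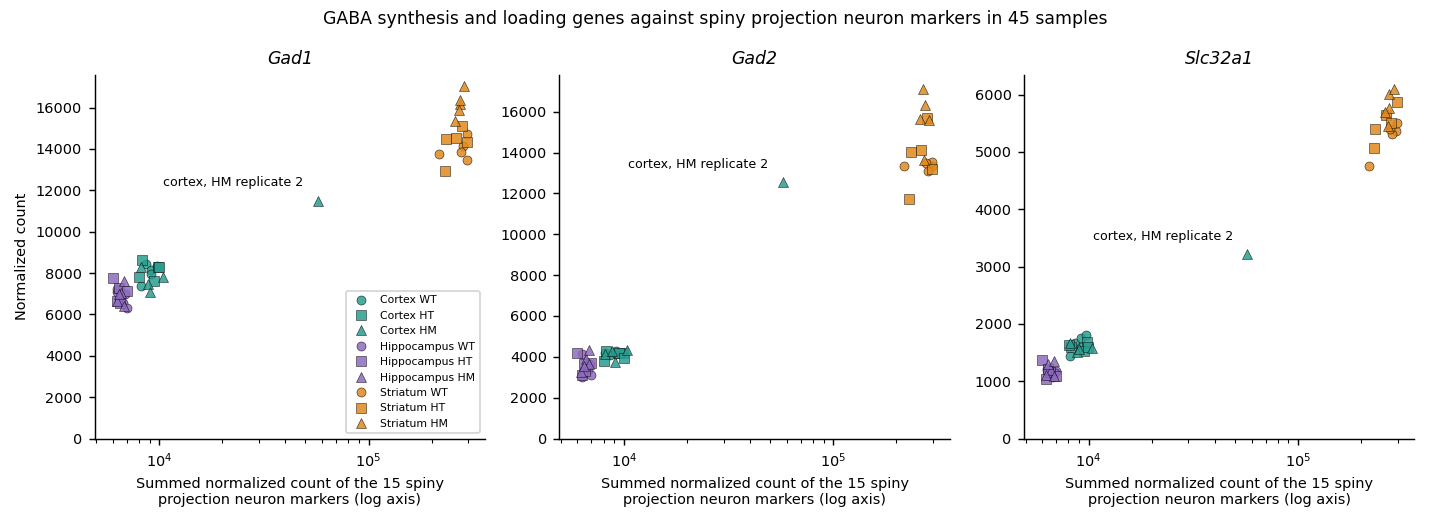
Normalized counts of Gad1, Gad2 and Slc32a1 against the summed normalized counts of 15 spiny projection neuron markers (log axis) in the 45 samples, coloured by region and shaped by genotype. Regions form separate clouds, and the cortex of Shank3-HM replicate 2 (marker sum 57259) lies between the cortical and the striatal samples.

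Other genes of the inhibitory synapse were read from lists of partners, receptors, metabolism and transport (10 genes) and paralogs. No gene of any list passed between Shank3-HT and WT or between Shank3-HM and WT in hippocampus or striatum, nor between Shank3-HT and WT in the cortex, against the shares of all genes given above. Among 26 partners of gephyrin and the organizers, Igsf9b, an adhesion protein of inhibitory synapses, had the smallest p in the hippocampus of both mutants, with 2015 ± 122 in Shank3-HT and 1895 ± 143 in Shank3-HM against 1575 ± 262 in WT (log2 differences 0.37 and 0.28, adjusted p = 0.828 and 0.92 in limma). It was also the first of the list in the Shank3-HM striatum (0.25, adjusted p = 0.285 in limma) and in the Shank3-HT cortex (0.20, adjusted p = 1). In the Shank3-HT striatum the first was Plcl1, which binds GABA-A receptors and phosphatases (0.37, adjusted p = 0.566 in limma). The medians of this list between Shank3-HM and WT were 0.02 in the hippocampus (17 of 26 above 0) and 0.00029 in the striatum (13 of 26), where the medians over all genes were 0.0037 and 0.00072. Without hippocampus WT replicate 4 and striatum WT replicate 5 the list medians were 0.02 (16 of 26) and 0.04 (14 of 26).

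Of the GABA receptor genes, 17 were tested in hippocampus and striatum. In the hippocampus 14 of 17 lay above 0 in Shank3-HT (median 0.06) and 15 of 17 in Shank3-HM (median 0.08), where the median over all genes was 0.0056 and 0.0037, and in the striatum 7 and 8 of 17 did. Both hippocampal counts share WT replicate 4, which had the lowest summed receptor level of its group (63934 against 67555 to 77675). Without it 11 of 16 lay above 0 in Shank3-HT (median 0.05) and 10 of 16 in Shank3-HM (median 0.05), and the mean summed level in WT went from 71135 to 72935, from under to above those of Shank3-HT (72511) and Shank3-HM (72135). In the same hippocampal comparisons the 10 choroid plexus markers had medians of -1.40 in Shank3-HT (0 above 0) and 0.26 in Shank3-HM (9 above 0), astrocyte markers were above 0 for 9 and 7 of 10, and in Shank3-HM the oligodendrocyte, microglia and endothelial markers were each above 0 for 1 of 10. Without WT replicate 4 the choroid plexus medians were -0.78 (0 above 0) and 0.73 (10 above 0). The part of these markers in the receptor values was not tested. Genes with the smallest p of the list included Gabra3 in the Shank3-HM hippocampus (0.19, adjusted p = 0.92 in limma) and the low-level Gabrr2 in the Shank3-HM striatum, at 37.6 ± 14.7 against 19.6 ± 10.2 normalized counts. The 13 paralogs of the members (12 tested in the striatum) had a median of -0.03 in the Shank3-HM striatum (-0.08 without WT replicate 5), with Slitrk6 first (-0.48, adjusted p = 0.657 in limma).

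Within groups, members were compared with the 12474 genes that had a mean of at least 100 by Pearson r of log2 deviations from the group means. The values are descriptions, since all genes share the libraries of the 45 samples. Slitrk3 was like Rbfox1, a splicing regulator of neurons (0.821). Gphn was most like Hdac2 (0.669), Ppil4 (0.661) and Tspyl2 (0.654), Nlgn2 most like Ddx56 (0.658), Cbarp (0.568) and Nyap1 (0.551), Lhfpl4 most like Agfg2 (0.789), Camk2b (0.779) and Icam5 (0.723) and Iqsec3 most like Kcnj16 (0.813), Kif5a (0.761) and Itpkb (0.751). For the GABA genes the leading genes were Dlx5 (0.856), Slc35d3 (0.801) and Prkch (0.782) for Gad1, Tac1 (0.901), Fam102b (0.899) and Abat (0.895) for Gad2 and Prkch (0.876), Ankrd63 (0.871) and Pde1b (0.857) for Slc32a1. These lists changed without the cortex of Shank3-HM replicate 2. Over the other 44 samples the leading genes were Isg20l2 (0.666) for Gad1, Dlx6os1 (0.652) for Gad2 and 1700030K09Rik (0.594) for Slc32a1. Gphn was then most like Eif3a (0.679), Ppil4 (0.675) and Hdac2 (0.671), and Lhfpl4 most like Spryd3 (0.815), Fam160b2 (0.78) and Agfg2 (0.771). The first gene stayed Ddx56 for Nlgn2 and Kcnj16 for Iqsec3, and r with Rbfox1 was 0.834 for Slitrk3. Among the members, r between Gad1 and Gad2 was 0.841 over 45 samples and 0.588 over 44, between Gad1 and Slc32a1 0.871 and 0.678, and between Gad2 and Slc32a1 0.831 and 0.326.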

How the data were processed

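Total RNA of brain tissue was sequenced from libraries of a stranded mRNA kit. Per the labels, the authors processed the reads with Salmon 1.1.0, R 3.6.2 and DESeq2 1.26.0 on GRCm38 (the versions of R and DESeq2 in the methods differ). Their methods describe quasi-mapping with GC bias correction and import with tximport. The deposited values are normalized counts with decimals (a signal scaled between samples by the authors), so that no model of counts was applied and the sequencing depth is unknown.

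Of 18135 Ensembl identifiers, 18120 had a symbol. On a log2 scale with 1 added, and after leaving out genes whose mean in a fit was under 10, limma 3.58.1 (R 4.3.3, eBayes with an intensity trend, Benjamini-Hochberg adjustment over all genes tested, threshold 0.05) was fitted to the 3 genotypes of each region, or to all 9 groups for comparisons between regions. Exact permutation tests were two-sided, and the 62 of single members were not adjusted for their number. The fits were tested on simulated data. Labels give replicates of a group without naming litters, so p-values measure the spread between these samples. Same-numbered samples of different groups within a region did not deviate together (r -0.13 to 0.18 over 45 pairs, 8 over 0.1), so numbers were not taken to pair mice. The 8 genes and the gene lists were chosen with earlier results of these data known. Named genes are the members, the gene of each list with the smallest p, and the 3 genes most like each member. Some genes that this rule names are not reported here. Alternatives were another pseudocount, filters, no trend, quantile normalization, a replicate block, fits of the compared groups alone, and leaving out each mouse. Python 3.11.15 and matplotlib 3.10.9 were also used.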

Additional observations from a re-analysis of the deposited data

Results flagged for a closer look

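In 8 of 72 groups of 5 (8 genes in 9 groups), 1 sample lay further from the nearest other than Dixon's test allows at the 5% level, which chance alone gives in about 5% of groups. Of these, 3 were the cortex of Shank3-HM replicate 2, with 11505 normalized counts for Gad1, 12546 for Gad2 and 3215 for Slc32a1, above the rest of the group. The striatum of WT replicate 5 was high for Iqsec3 (2879, group median 2079) and low for Slc32a1 (4757, group median 5360), and it is the sample with the low spiny projection neuron sum. Slitrk3 was low in the cortex of WT replicate 4 (1552, group median 1659) and of Shank3-HT replicate 3 (1247, group median 1577). Lhfpl4 was low in the striatum of Shank3-HM replicate 5 (3629, group median 4650.4). The part of tissue composition in these values was not tested.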

How the results depend on the processing

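The number of tested members past the threshold stayed at 0 in every alternative fit between genotypes that was tested, and was 6 to 7 (WT striatum against cortex), 6 to 7 (striatum against hippocampus) and 3 to 5 (cortex against hippocampus) between WT regions. Of tested values, 1109 of 1163 alternative values of single members kept their direction and their side of the threshold. The striatal Shank3-HM minus WT difference of Gad1 ran from 0.19 to 0.23 with adjusted p of 0.101 to 0.279, that of Gad2 from 0.19 to 0.27 (0.145 to 0.636) and that of Iqsec3 from 0.30 to 0.47 (0.139 to 0.721), all in limma. With the replicate number as a block, where same-numbered samples of different genotypes did not deviate together, 0 members passed in any genotype comparison, and the adjusted p was 0.104 for Gad1 and 0.139 for Iqsec3 in the Shank3-HM striatum. Across regions, samples of 1 genotype and number had a consensus correlation of 0.121, and with them as a block of the same mouse 6, 7 and 4 members passed between WT regions, as in the fit without it. Leaving striatum WT replicate 5, striatum Shank3-HT replicate 5 or hippocampus WT replicate 4 out of the striatum minus hippocampus tests was added after seeing the data, and 0 members passed.

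Between WT regions, 11 alternative values crossed the threshold. Gphn between striatum and hippocampus no longer passed without the intensity trend (adjusted p = 0.0502), under quantile normalization (0.103), in the 10 WT samples alone (0.0665) or without 1 of 4 mice. Gad1 between cortex and hippocampus no longer passed under quantile normalization (0.11, 0.291). Nlgn2 between striatum and hippocampus passed under quantile normalization (-0.12, 0.0488), and Slitrk3 between striatum and cortex (0.0369) and Gad2 between cortex and hippocampus (0.00784) passed in the 10 WT samples alone. The cause was not tested.

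Among tested values, directions turned in 43 alternatives, all of differences that passed in no setting. Under quantile normalization these were Gphn (-0.00919) and Lhfpl4 (-0.0158) in the Shank3-HT hippocampus and Lhfpl4 between WT cortex and WT hippocampus (-0.047). Leaving out 1 mouse turned 18 tested differences, whose ranges were as follows. In cortex Shank3-HT against WT they were -0.00915 to 0.0194 for Nlgn2 and -0.0164 to 0.0377 for Gad1. In hippocampus Shank3-HM against WT they were -0.0438 to 0.0358 for Iqsec3, -0.0122 to 0.0482 for Gad1, -0.0289 to 0.0718 for Slitrk3 and -0.0541 to 0.000288 for Nlgn2. In hippocampus Shank3-HT against WT they were -0.0196 to 0.0206 for Lhfpl4, -0.0335 to 0.0621 for Slc32a1, -0.0341 to 0.0345 for Gphn, -0.0895 to 0.0111 for Slitrk3 and -0.0630 to 0.00664 for Nlgn2. In striatum Shank3-HM against WT they were -0.103 to 0.0428 for Gphn and -0.0827 to 0.0189 for Lhfpl4. In striatum Shank3-HT against WT they were -0.0273 to 0.0268 for Nlgn2, -0.115 to 0.0328 for Gphn, -0.0146 to 0.0900 for Gad2 and -0.0749 to 0.0173 for Slitrk3. In striatum Shank3-HM against Shank3-HT they were -0.0185 to 0.147 for Iqsec3. Between Shank3-HM and WT in the cortex, where no test was made, leaving out 1 mouse also turned Gad1 (-0.0712 to 0.103), Gad2 (-0.0180 to 0.416), Lhfpl4 (-0.0406 to 0.0326) and Slc32a1 (-0.0589 to 0.212).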
